A study of Mus musculus with 12 samples.

Results

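The clustered protocadherins are neuronal adhesion proteins of the cadherin superfamily, encoded in 3 neighbouring gene clusters called alpha, beta and gamma. They were taken from the array table by gene symbol: 14 alpha, 22 beta and 22 gamma genes, 58 of 24570 named genes, and all 58 were measured in every animal with no filter on low values. The family was selected on measured values: its beta genes had been seen to rise in diabetic retinas in these same data. Therefore each difference between diabetic and control animals is given here as a description and supports nothing by itself. Values were log2 array values of whole retina from male C57Bl6/J mice, with 1 array per animal. The diabetic group (n = 6) had received streptozotocin, a toxin of insulin-producing cells, at 160 mg/kg into the peritoneum at 8 weeks of age and had more than 15 mM blood glucose after 7 days. The control group (n = 6) was normoglycaemic, without streptozotocin, and of the same age. Both groups were killed at 6 weeks; the series text gives 6 weeks as the age of the diabetic animals, and this conflicts with injection at 8 weeks. Streptozotocin diabetes models the loss of insulin, and any direct effect of the toxin cannot be told apart from that of high glucose in these 2 groups.

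A protocadherin of these clusters typically has 6 extracellular cadherin repeats, and most isoforms bind the same isoform on an opposing membrane. In the alpha and gamma clusters, each variable first exon has its own promoter and is spliced to constant exons that all members of the cluster share, whereas each beta gene is a single coding exon with no shared tail. No source used here says whether the array values of alpha and gamma genes include probes of the shared constant exons, which bears on their levels, their spread and their correlations. A neuron switches on a small, largely random set of alpha, beta and gamma promoters, with DNA methylation, CTCF and cohesin taking part in the choice, and the C-type genes at the end of the alpha and gamma clusters are less subject to it. In the retina, gamma protocadherins are known for letting the dendrites of a starburst amacrine cell avoid one another and for the survival of ganglion cells and interneurons.

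Of the markers of the labelled tissue, those of rods and Mueller glia were highest. The mean log2 value in controls was 12.65 for 7 rod markers and 11.33 for 4 Mueller glia markers, against an array median of 5.73. Other retinal lists lay lower, such as horizontal cell markers at 6.73, starburst amacrine markers at 6.27 and astrocyte markers at 5.60. The array correlations ran from 0.993 to 0.998. Lens markers varied most, from 6.03 to 6.99 in controls and from 5.89 to 8.21 in diabetic animals, with the highest value in diabetic 6. Pigment epithelium markers came next, from 6.68 to 7.39 in controls and from 6.69 to 8.03 in diabetic animals, also highest in diabetic 6. Whole retina holds many cell types, so fewer cells of a type and less RNA per cell cannot be told apart. The label numbers of the animals do not overlap between the groups, so anything they stand for cannot be told apart from diabetes. Diabetic 5 and diabetic 6 carry higher label numbers than the other 4 diabetic animals.

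Beta protocadherins were higher in diabetic retinas, and more so towards the gamma end of their cluster. The mean of the 22 beta genes was 6.42 ± 0.04 in controls and 6.56 ± 0.05 in diabetic animals (log2 value, SD, n = 6 each), a difference of 0.15 or 1.11-fold. By animal, the beta mean ran from 6.36 to 6.47 in controls (median 6.42) and from 6.48 to 6.62 in diabetic animals (median 6.57). All 6 diabetic animals lay above the highest control, by a small margin in diabetic 2. Of the 22 genes, 21 had a change above 0, with a median of 0.14, where all genes had a median of 0.00 and 48.1% above 0. By limma with Benjamini-Hochberg adjustment over all genes, 5 of 22 beta genes were called higher and 0 lower, where 1.47% of all genes were called higher and 1.77% lower. Since the genes were picked for this rise, nothing is read from that count. At an unadjusted p under 0.05, 14 beta genes were higher and 0 lower, where 9.76% of all genes were higher and 11.3% lower; nothing is read from this count either.

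**Figure D1:**
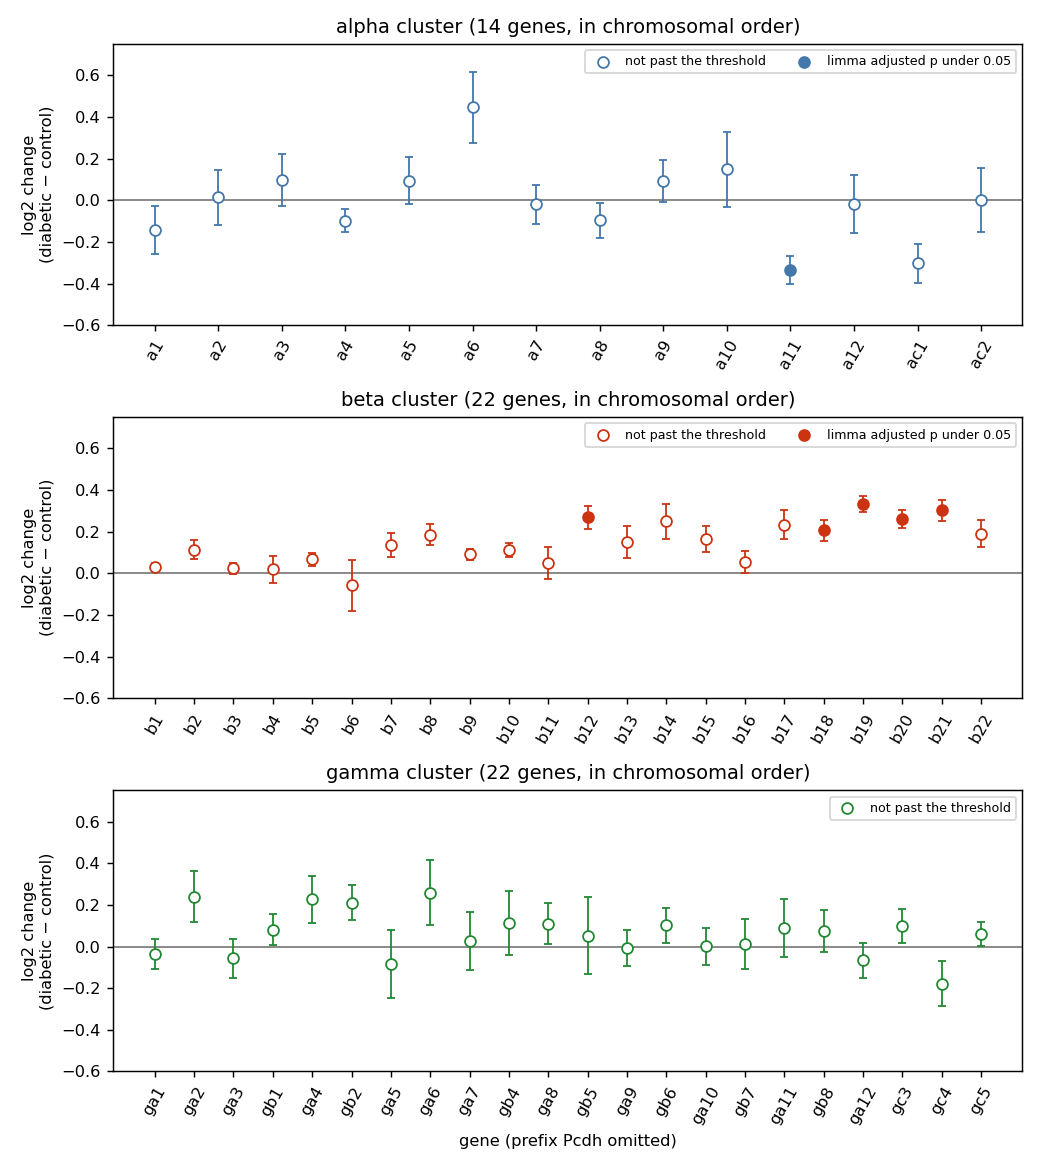
Log2 change (diabetic minus control, bars show the SE, n = 6 per group) of each gene of the alpha, beta and gamma clusters in chromosomal order, with filled points past the limma threshold. The 5 filled beta points are Pcdhb12 and the run from Pcdhb18 to Pcdhb21, and the 1 filled alpha point is Pcdha11, below 0.

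Along the beta cluster, which runs from Pcdhb1 next to the alpha genes to Pcdhb22 next to the gamma genes, the size of the change followed the order of the genes. The first 11 genes had a median change of 0.07 (from -0.06 to 0.19) and the last 11 a median of 0.23 (from 0.06 to 0.33). All 5 called genes were among the last 11. That depended on the setting: with trended and robust variances Pcdhb9, among the first 11, was called in place of Pcdhb18, and with only genes at or above the median level 7 were called, with Pcdhb8, among the first 11, and Pcdhb17 added. Over the 22 genes, Spearman's rho between change and position was 0.75; the genes share the same 12 arrays and are no independent replicates. Brightness also followed the order: the rho of control value with position was 0.58, that of change with control value was 0.35, and 5 of 22 beta genes lay below the array median. Among the 17 beta genes at or above it, the first 11 positions held 6 genes with a median change of 0.04, the last 11 positions held 11 with a median of 0.23, and the rho with position was 0.74. In controls these 6 genes ran from 5.76 (Pcdhb7) to 7.77 (Pcdhb6) and the 11 from 5.84 (Pcdhb21) to 8.78 (Pcdhb20). The filter did not separate brightness from order, and the part of brightness was not tested.

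Summed by animal, the last 11 beta genes averaged 6.91 ± 0.07 in controls and 7.13 ± 0.07 in diabetic animals (SD, n = 6 each), a difference of 0.22 or 1.16-fold. The lowest diabetic animal, diabetic 2 at 7.01, lay just above the highest control, control 3 at 7.00. The first 11 genes averaged 5.92 ± 0.03 and 5.99 ± 0.03, a difference of 0.07 or 1.05-fold, and 5 of 6 diabetic animals lay above the highest control.

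**Figure D2:**
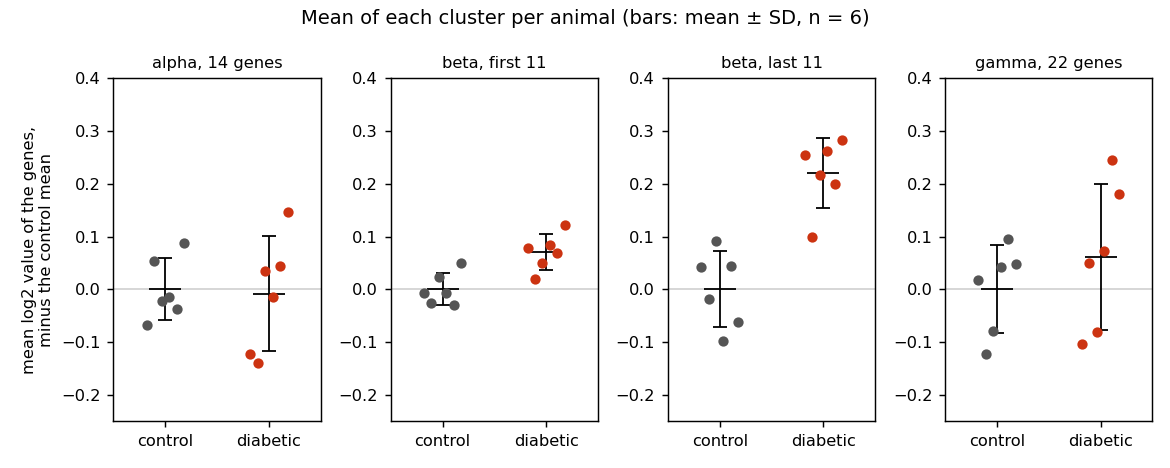
Mean log2 value per animal, minus the control mean, for the alpha genes, the first 11 and last 11 beta genes and the gamma genes. Points are animals and bars the mean ± SD (n = 6); the groups part for the last 11 beta genes (difference 0.22) and overlap for alpha and gamma.

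The genes called higher lay mostly side by side. Pcdhb19 measured 6.57 to 6.80 in controls (median 6.70) and 6.97 to 7.08 in diabetic retinas (median 7.05), so that the groups stood well apart. Its change was 0.33 ± 0.04 (log2, SE, n = 6 per group), or 1.26-fold. Next to it, Pcdhb20 measured 8.62 to 8.86 in controls (median 8.81) and 8.93 to 9.13 in diabetic retinas (median 9.05), again with no overlap. Its change was 0.26 ± 0.04, or 1.20-fold. Pcdhb21 measured 5.75 to 5.97 in controls (median 5.85) and 5.99 to 6.30 in diabetic retinas (median 6.15), with diabetic 2 just above control 5. Its change was 0.30 ± 0.05, or 1.23-fold. These 3 neighbouring genes kept their call without any single array and under each of the other 6 settings tried.

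Pcdhb18 and Pcdhb12 were called less firmly. Pcdhb18 measured 7.05 to 7.29 in controls (median 7.19) and 7.22 to 7.47 in diabetic retinas (median 7.44), so that diabetic 2 fell among the controls while the other 5 lay above them. Its change was 0.21 ± 0.05, and the call was lost in 11 of 12 runs without 1 array. Pcdhb12 measured 6.19 to 6.43 in controls (median 6.27) and 6.41 to 6.74 in diabetic retinas (median 6.53). Only diabetic 2 was within the control range; the change was 0.27 ± 0.05, or 1.20-fold. Without control 3, control 6, diabetic 4 or diabetic 6 its call was lost and the count of beta genes called was 3. Without diabetic 2 the count was 6, with Pcdhb17 as the added gene. With only the 4 diabetic animals of lower label number the count was 3 (Pcdhb19, Pcdhb20 and Pcdhb21) and the beta mean differed by 0.13.

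Other beta genes set the limits of the pattern. Pcdhb9 measured 5.24 to 5.29 in controls and 5.29 to 5.47 in diabetic retinas, with no overlap before rounding. It lay below the array median, and its change of 0.09 ± 0.03 was called only with trended and robust variances among the settings tried. It was singled out after its values were seen. In all, the groups did not overlap with diabetic retinas higher for 4 of 22 beta genes, where this held for 1.22% of all genes. At the 2 ends, Pcdhb1 was at 5.25 to 5.33 in controls and 5.30 to 5.38 in diabetic retinas (change 0.03 ± 0.02), and Pcdhb22 at 6.00 to 6.45 and 6.35 to 6.52 (0.19 ± 0.06). Neither end gene was called. The lowest changes, counted with their sign, were those of Pcdhb6 (-0.06 ± 0.12), Pcdhb4 (0.02 ± 0.07) and Pcdhb3 (0.02 ± 0.03), all in the first 11 positions. Pcdhb6 was the only beta gene below 0 and also the most variable, running from 7.31 in diabetic 2 to 8.05 in control 6; without diabetic 2 it was at 0.02 and all 22 beta genes were above 0. Beta genes are similar in sequence, and whether the probes of the table tell neighbours apart was not tested.

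**Figure D3:**
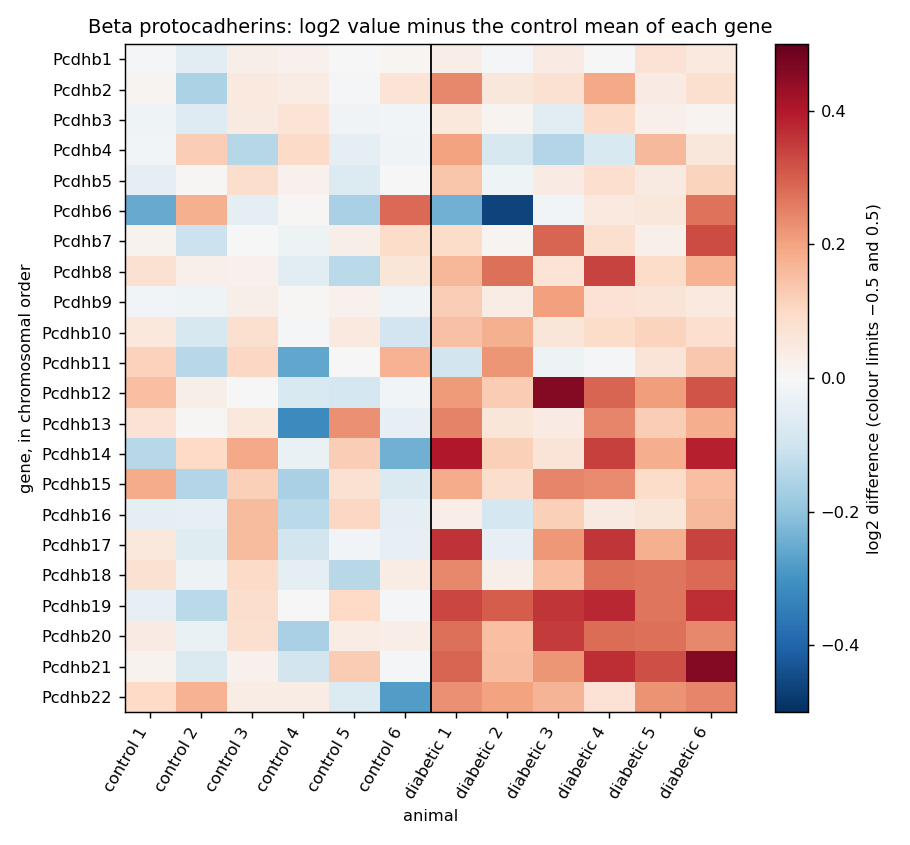
Log2 value of each beta gene in each of the 12 animals minus that gene's control mean, in chromosomal order from Pcdhb1 at the top to Pcdhb22 at the bottom. Diabetic columns turn red in the lower rows, with Pcdhb19, Pcdhb20 and Pcdhb21 above every control in all 6 diabetic animals, and diabetic 2 is the palest diabetic column for Pcdhb17 and Pcdhb18.

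Alpha protocadherins did not move as a group. Their mean was 6.42 ± 0.06 in controls and 6.41 ± 0.11 in diabetic animals (SD, n = 6 each), a difference of -0.01, and animals ran from 6.35 to 6.51 and from 6.28 to 6.57. Of 14 genes, 7 had a change above 0 and 7 below, with a median of -0.01. By limma 1 of 14 was called lower and 0 higher, where 1.77% of all genes were called lower and 1.47% higher. At an unadjusted p under 0.05, 2 were lower and 1 higher, against 11.3% and 9.76% of all genes. The called gene was Pcdha11, an alpha isoform, which measured 6.79 to 7.12 in controls (median 7.05) and 6.48 to 6.73 in diabetic retinas (median 6.68). All 6 diabetic animals lay below the lowest control, and the change was -0.34 ± 0.07, a ratio of 0.792. The call was lost without control 2, control 6 or diabetic 3. The groups did not overlap with diabetic retinas lower for this 1 alpha gene, where that held for 1.62% of all genes.

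The C-type gene Pcdhac1 measured 6.49 to 6.82 in controls (median 6.71) and 6.02 to 6.64 in diabetic retinas (median 6.40), with 5 of 6 diabetic animals below the lowest control. Its change of -0.30 ± 0.09 was not called. The other C-type alpha gene, Pcdhac2, which is known from serotonergic axons, ran from 6.65 to 7.44 in controls and from 6.78 to 7.69 in diabetic retinas (change 0.00 ± 0.15). Pcdha6 had the highest change of the 58 genes, 0.45 ± 0.17, and was not called. It ran from 6.41 to 6.79 in controls (median 6.65) and from 6.61 to 7.63 in diabetic retinas (median 6.98). Above the highest control lay 4 of 6 diabetic animals, diabetic 1 and diabetic 4 among them. Highest were diabetic 5 at 7.63 and diabetic 6 at 7.57, the 2 animals with the higher label numbers. With the other 4 diabetic animals alone the change was 0.19. Changes of Pcdha10 (0.15 ± 0.18), Pcdha3 (0.10 ± 0.12) and the first gene, Pcdha1 (-0.14 ± 0.12), were near the size of their errors. No order along the cluster was apparent (rho of change with position -0.18, n = 14 genes).

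Gamma protocadherins leaned upward without any call. Their mean was 8.49 ± 0.08 in controls and 8.55 ± 0.14 in diabetic animals (SD, n = 6 each), a difference of 0.06. Animals ran from 8.37 to 8.59 in controls and from 8.39 to 8.74 in diabetic retinas, with diabetic 1 and diabetic 3 near the lowest control and diabetic 5 and diabetic 6 above the highest. With only the 4 diabetic animals of lower label number the difference was -0.02. By limma 0 of 22 gamma genes were called in either direction, where 1.47% of all genes were called higher and 1.77% lower, so 0 of 22 is near these shares. With trended and robust variances 0 were called as well. At an unadjusted p under 0.05, 1 was higher (Pcdhgb2, 0.21 ± 0.08, named after its value was seen) and 0 were lower, against 9.76% and 11.3% of all genes. Of the 3 types, the 7 B-type genes all had changes above 0, from 0.01 to 0.21, against 7 of 12 A-type genes and 2 of 3 C-type genes. These 7 genes share the same arrays and are no independent replicates. In Pcdhgb4, Pcdhgb5, Pcdhgb6, Pcdhgb7 and Pcdhgb8 the highest diabetic values were those of diabetic 5 and diabetic 6, the animals with the higher label numbers. In Pcdhgb1 and Pcdhgb2 they were not. The B-type gene Pcdhgb8 is annotated as a transcribed pseudogene.

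Among A-type genes the widest changes were those of Pcdhga6 (0.26 ± 0.16), Pcdhga2 (0.24 ± 0.12) and Pcdhga4 (0.23 ± 0.11). Pcdhga4 ran from 7.53 to 8.20 in controls (median 7.93) and from 7.96 to 8.46 in diabetic retinas (median 8.09), with diabetic 5 far above the rest. Pcdhga5 (-0.08 ± 0.16) and Pcdhga12 (-0.07 ± 0.08) were lowest, and the first gene of the cluster, Pcdhga1, was at -0.04 ± 0.07. None of these exceeded the spread between animals by the test.

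Of the C-type gamma genes, Pcdhgc4, the isoform known for the survival of neurons, ran from 7.47 to 7.67 in controls (median 7.53) and from 6.98 to 7.73 in diabetic retinas (median 7.38). Diabetic 1, diabetic 3 and diabetic 4 lay below every control and diabetic 5 above every control, and the change was -0.18 ± 0.11. Pcdhgc3, a C-type isoform that binds the Wnt pathway protein Axin1, changed by 0.10 ± 0.08, and Pcdhgc5, the last gene of the cluster, by 0.06 ± 0.06. The rho of change with position was -0.25 over the 22 gamma genes. Past the end of the beta cluster, Pcdhga1, the first gamma gene, was at -0.04 ± 0.07, against 0.19 ± 0.06 for Pcdhb22. The next gamma genes were on both sides of 0, with Pcdhga2 at 0.24 ± 0.12 and Pcdhga3 at -0.06 ± 0.09. The first 11 gamma genes had a median change of 0.11 and the last 11 a median of 0.05.

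The clusters also differed in how much animals of 1 group varied. This measure does not use the difference between groups, but a rise is seen more easily where the spread is small. The choice of the family for its beta genes could therefore favour a low spread in that cluster. The median SD between animals within a group was 0.21 for alpha, 0.18 for gamma and 0.10 for beta genes. Each member was set beside the 500 genes outside the family nearest to it in mean value. Its SD lay above the median of those genes for 14 of 14 alpha, 22 of 22 gamma and 16 of 22 beta genes, and above their 90th percentile for 12, 20 and 6. The median ratio of a member's SD to that median was 2.35 for alpha, 1.90 for gamma and 1.20 for beta genes. Alpha and gamma genes were thus more variable than most genes of like brightness, and beta genes less markedly so. The SE of a change followed this, with a median of 0.11 for alpha, 0.10 for gamma and 0.05 for beta genes, so that a change of the size seen in beta genes could be called less easily in the other clusters. The B-type gene Pcdhgb5 with an SD of 0.35 and Pcdha10 with 0.34 were the most variable members, both singled out after their values were seen.

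**Figure D4:**
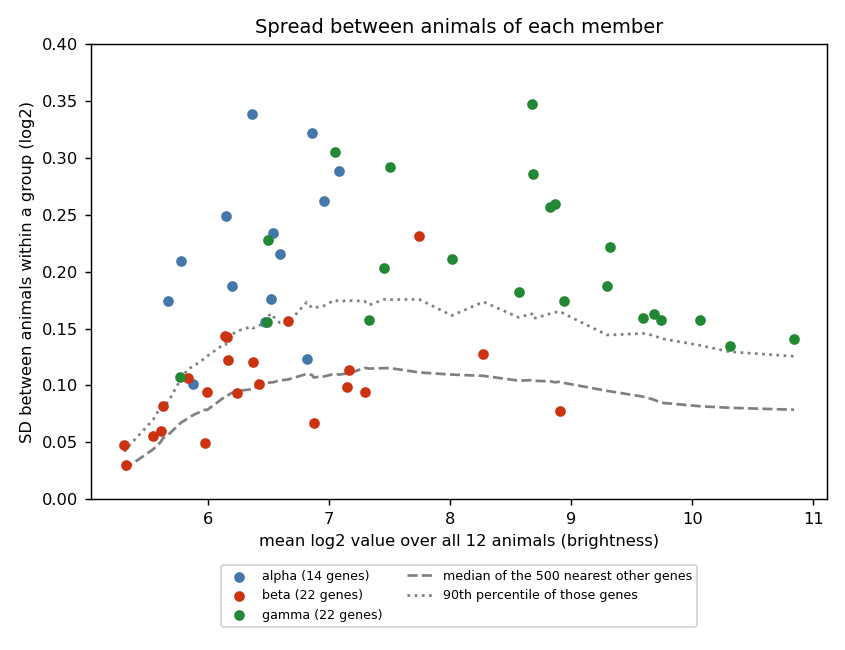
SD between animals within a group (log2) of each alpha, beta and gamma gene against its mean log2 value over all 12 animals, one point per gene, with the median (dashed line) and 90th percentile (dotted line) of the 500 other genes nearest in mean value. Above the dotted line lie 12 of 14 alpha, 20 of 22 gamma and 6 of 22 beta points.

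Within a group, the median correlation between members was highest among gamma pairs in diabetic animals. Over the 6 controls, the median correlation between members was 0.17 among beta pairs (231 pairs), 0.22 among gamma pairs (231) and -0.03 among alpha pairs (91); between beta and gamma genes it was -0.02 (484 pairs). In diabetic animals the corresponding medians were 0.25, 0.45, 0.11 and 0.02. Of the gamma pairs, 75.3% were above 0 in diabetic animals and 61.0% in controls. Pairs of other genes were not set beside them. Pairs share animals and arrays, and these values are a description. Of the 6 relations between cluster means (3 pairs of clusters in each group, n = 6 animals), none passed: between beta and gamma means Pearson's r was -0.21 in controls (exact permutation p = 0.683, adjusted p = 0.820) and 0.13 in diabetic animals (exact permutation p = 0.825, adjusted p = 0.825). Spearman's rho was -0.09 (exact permutation p = 0.919, adjusted p = 0.919) and 0.31 (exact permutation p = 0.564, adjusted p = 0.846). Without the 2 animals of the group farthest from its median beta mean, r was 0.70 and -0.27. The pair of alpha and beta means in diabetic animals had the largest r, 0.62 (exact permutation p = 0.197, adjusted p = 0.800). Its rho was 0.54 (exact permutation p = 0.297, adjusted p = 0.594). Without the 2 diabetic animals farthest from the median alpha mean, its r was -0.74. Too few animals then remain to tell what the r of 0.62 rested on.

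Genes known to act on protocadherin promoters were mostly measured well above the array median. Of 20 such genes, 2 rose and 0 fell by limma over all genes, where 1.47% of all genes rose and 1.77% fell. At an unadjusted p under 0.05 there were 6, where 21.0% of all genes passed in either direction. The median change was 0.05. Ctcf, the factor that brings promoters and enhancers of the clusters together, rose from 10.08 ± 0.07 to 10.23 ± 0.03 (SD, n = 6 each), a change of 0.15 ± 0.03 (adjusted p = 0.0310). Its call was lost without control 1, control 2, control 3, diabetic 1, diabetic 4 or diabetic 5. Wapl, which releases cohesin from DNA, rose from 10.04 ± 0.08 to 10.22 ± 0.06, a change of 0.19 ± 0.04 (adjusted p = 0.0330), and lost its call without control 2, control 6, diabetic 3, diabetic 4 or diabetic 5. What part these changes have in the beta result was not tested.

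Of 18 partners of the family at the membrane and in the cytoplasm, 1 rose and 0 fell, with a median change of 0.01, against the same 1.47% and 1.77% of all genes. At an unadjusted p under 0.05 there were 2, against 21.0% of all genes. Nlgn1, a synaptic adhesion protein that gamma protocadherins bind, changed by 0.24 ± 0.06 (adjusted p = 0.0475), and the call was lost in all 12 runs without 1 array. Of 10 non-clustered protocadherins, 0 were called by limma and 1 had an unadjusted p under 0.05, where 21.0% of all genes did. Pcdh10, a delta protocadherin, was at -0.18 ± 0.08 (adjusted p = 0.205) and Pcdh1 at -0.09 ± 0.05 (adjusted p = 0.292). Of 16 other recognition genes of retinal neurons, 0 were called and 3 had an unadjusted p under 0.05, again against 21.0% of all genes. Cntnap4 was at 0.08 ± 0.03 (adjusted p = 0.111) and Dscam, which acts in self-avoidance of amacrine cells, at 0.08 ± 0.03 (adjusted p = 0.130).

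The genes around the clusters had changes on both sides of 0. Of the 10 nearest protein-coding genes on each side and 5 others within the clusters, 22 were measured, 9 with a change above 0 and a median of -0.01. Of these 22, 5 had an unadjusted p under 0.05, against 21.0% of all genes. Hars2, a mitochondrial histidyl-tRNA synthetase before the alpha cluster, was the only one called higher, against 1.47% of all genes (0.21 ± 0.05, adjusted p = 0.0480), and lost the call in 11 of 12 runs without 1 array. Taf7 and Slc25a2, which lie between the beta and gamma genes, were at -0.04 ± 0.05 and 0.04 ± 0.03. Directly after the gamma cluster, Diaph1 was at 0.09 ± 0.06 and Hdac3 at 0.03 ± 0.04. These flanking genes were singled out by place.

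Of the marker lists, 1 parted the groups as the beta genes did. The mean of 3 astrocyte markers ran from 5.56 to 5.63 in controls and from 5.66 to 5.75 in diabetic retinas. Gfap and Pdgfra, 2 of the 3, were called higher, where 1.47% of all genes were called higher and 1.77% lower. Pax2 was at -0.06 ± 0.02, and all 3 lay near the array median of 5.73. Starburst amacrine markers ran from 6.22 to 6.35 and from 6.22 to 6.42 (0 of 4 called), amacrine markers from 8.69 to 8.95 and from 8.69 to 8.86 (0 of 6), and ganglion cell markers from 8.77 to 9.09 and from 8.72 to 9.01 (0 of 6). At the shares of all genes, most lists of this length would hold no called gene. Of the other 14 marker lists, 2 held a called gene, cone arrestin (Arr3) and the smooth muscle actin gene Acta2, both lower, and in none did the animals of the 2 groups part. The part of astrocytes in the beta result was not tested. Lens and pigment epithelium markers were highest in diabetic 6. Without that animal the beta mean differed by 0.13 and 3 beta genes were called.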

How the data were processed

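The deposited values are log2 values from RMA (background correction, quantile normalization and probe summary), per the submitters' processing notes; its version, the array name and the probe set definition are not given in the sources used here. All 12 columns had the same sorted values, from 5.07 to 14.10, which would hide a shift shared by most genes. The 24973 lines were named by gene number with the platform annotation and the RefSeq table of GRCm38.p6, which left 24570 genes; the latter also gave the order of the genes. Changes (diabetic minus control) were fitted with limma 3.58.1 in R 4.3.3 (lmFit, then eBayes) on all genes, with Benjamini-Hochberg adjustment and a threshold of 0.05. The procedure was tested on simulated data. The members, lists and tests were chosen with earlier results of these data known. The named genes were each cluster's called genes, its 3 highest and 3 lowest changes, its first and last gene and the C-type genes, and in each other list the called genes or the 2 of smallest p. Brightness was not compared between genes as abundance. Sequence features of the members were not analysed here. Array number limits the precision.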

Additional observations from a re-analysis of the deposited data

Results flagged for a closer look

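Of 58 groups of 6 animals (26 named members and the 3 cluster means in each group), in 3 a single animal stood apart from its group, with a gap to its nearest neighbour that took up more of the group's range than Dixon's test allows at the 95% level; this is 5.17%, where chance flags about 1 in 20. Pcdhgc5, the last gamma gene, stood high in control 5 (6.00, ratio 0.696). Pcdhac2 stood high in diabetic 3 (7.69, ratio 0.667), and without that animal its change was -0.12. Pcdhga4 stood high in diabetic 5 (8.46, ratio 0.698).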

How the results depend on the processing

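Settings other than the one reported were trended and robust variances, array weights, cyclic loess, a filter at the median level, the replicate number as a block, the median over members, and the 4 diabetic animals of lower label number. The mean changes of the 3 clusters and their rho with position moved by less than their spread under each of these that was run. Of 63 summary values, 6 moved. The filter gave 2 alpha genes called lower. With 4 diabetic animals, 0 alpha genes were called lower, 3 beta genes were called higher and 291 of all genes were called. The replicate block gave 3 beta genes called higher and 506 of all genes, against 797 without it. Same-numbered animals had deviations correlated from -0.16 to 0.17, and 1 of 6 controls correlated best with its own number. The labels name no pairing, and these 6 correlations cannot exclude one. Without 1 array, 0 to 1 alpha genes were called lower, 3 to 6 beta genes higher and 325 to 835 of all genes. The rho with position ran from 0.65 to 0.78 for beta, -0.341 to -0.0813 for alpha and -0.35 to -0.16 for gamma, and the mean change from 0.13 to 0.16 for beta, -0.04 to 0.02 for alpha and 0.02 to 0.09 for gamma. No called member or listed gene reversed. Calls of Pcdhb12, Pcdhb18, Ctcf, Wapl and Hars2 were lost with the replicate block. Dim genes, among them 5 beta genes and 1 alpha gene below the array median, limit what can be seen, since no background signal was analysed.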
